A study of Homo sapiens with 6 samples.

Results

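The genes described here are 6 carboxypeptidase genes, CPA4, CPE, CPD, CPM, CPQ and CPVL, taken by name from the 20030 gene names of a count table. CPA4 was picked for its fall from a high level in these same libraries, so its difference between the groups is given as a description with no test. The other 5 were named with it as related enzymes. CPA4, CPE, CPD and CPM belong to the zinc-dependent M14 family, and CPQ is a zinc enzyme of another family. CPVL is a serine carboxypeptidase, so the set is not made of metallocarboxypeptidases alone. All 6 genes passed the filter on low counts and were among the 12508 genes tested.

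The cells were KGN, an established granulosa tumour line of human ovary, labelled as wild type in both groups. The control siRNA group was transfected with a negative control siRNA and the SNHG5 siRNA group with siRNA that targets the long noncoding RNA SNHG5, with 3 libraries in each. RNA was extracted 48 h after transfection, and mRNA libraries were made from 1.0 µg of total RNA. The comparison asks how transcript levels in KGN cells differ after the SNHG5 siRNA. The labels do not say whether replicates were separate cultures, and p-values then cover only the scatter of these libraries, which may be technical. Neither the sequence nor the number of the siRNAs was stated in the labels. The level of SNHG5 itself was not analysed here.

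Total counts were between 18232634 and 22088913 per library, and a count of 3, the floor used here, was 0.136 to 0.165 cpm, the counts scaled to library size (written in small letters, since CPM is also a gene described here). Libraries of 1 group had Spearman correlations of 0.996 to 0.998, and libraries of different groups 0.987 to 0.989. The library labelled SNHG5 siRNA replicate 2 differed most from others of its group: compared over genes, its counts gave chi-square values of 8.35 and 8.57 per degree of freedom, while replicates 1 and 3 gave 1.90 and pairs of control libraries 3.03 to 4.28. The granulosa factors FOXL2 and NR5A1 were present at 25.3 ± 1.40 and 35.9 ± 1.09 cpm in the control group (SD, n = 3), while AMHR2 was below the floor. By log2 fold change, FOXL2 (0.17), NR5A1 (0.10) and INHBA (-0.03) did not pass, NR5A1 except under 2 of 12 alternatives. FSHR fell from 3.25 ± 0.242 to 1.47 ± 0.354 cpm (-1.15 ± 0.21, edgeR adjusted p = 2.32e-04). KRT18 also fell (-0.43 ± 0.05, edgeR adjusted p = 8.83e-07). KRT8 rose (0.17 ± 0.05, edgeR adjusted p = 0.0136), under 11 of 12 alternatives as well. KRT18 held most of the summed granulosa and KGN markers, which were 3479 to 3607 cpm in the control libraries and 2604 to 2883 in the SNHG5 siRNA libraries.

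Carboxypeptidases remove single amino acids from the carboxyl end of a protein or peptide. CPA4 is secreted as an inactive proenzyme and, once activated, prefers hydrophobic residues; its gene lies in the imprinted region of chromosome 7 near MEST, and it was first described as a gene induced by histone deacetylase inhibitors in cultured cancer cells. CPE and CPD remove the lysine and arginine that proprotein convertases leave at the ends of hormone and receptor precursors, CPE mainly in secretory granules and CPD in the trans-Golgi network. CPM does the same at the cell surface, where kinins and complement peptides are among its substrates. CPQ is a secreted and lysosomal enzyme that acts on short peptides, and CPVL is an enzyme of the secretory pathway first found in macrophages.

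The upstream sequences of CPA4 and CPE are shown because these were the members whose libraries did not overlap between the groups. They are the 250 bases before the RefSeq start site on GRCh38.p14, both on the plus strand, at chr7:130292911-130293160 for CPA4 and chr4:165378758-165379007 for CPE. GENCODE v29 starts the CPA4 gene slightly upstream of that site and the CPE gene well upstream. Its CPA4 start, at base 130293134, falls within TATAAA, so TGACTCA lies after it. The distances given below hold for the RefSeq start sites only. Capitals mark a pair of AP-1 words and TATAAA in CPA4, and TGACG in CPE.
CPA4: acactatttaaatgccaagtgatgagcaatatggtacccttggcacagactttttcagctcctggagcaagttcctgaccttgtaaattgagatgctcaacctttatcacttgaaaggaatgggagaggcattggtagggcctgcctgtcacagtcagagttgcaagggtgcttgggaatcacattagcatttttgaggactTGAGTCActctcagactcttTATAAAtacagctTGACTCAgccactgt
CPE: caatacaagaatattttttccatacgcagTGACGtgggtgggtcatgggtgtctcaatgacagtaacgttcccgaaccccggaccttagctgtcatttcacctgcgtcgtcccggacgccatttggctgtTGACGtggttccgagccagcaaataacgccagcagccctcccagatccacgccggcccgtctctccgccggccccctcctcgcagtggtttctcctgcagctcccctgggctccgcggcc

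In CPA4 the word TGAGTCA began 48 bases before the start site and its reverse complement TGACTCA 15 bases before it; both are spellings of the AP-1 site, the DNA word that JUN and FOS dimers recognise. TATAAA, the core of a TATA box, began 28 bases before the start site, between the AP-1 words, and overlaps TTTATA at 30 bases. These words were chosen after the CPA4 sequence was seen. Of 35116 RefSeq promoter windows of 300 bases (250 before and 50 after a start site), 4.95% held at least 1 AP-1 word in either spelling, 0.222% held at least 2, and 11.5% held TATAAA on either strand. TGACG, the core of the cAMP response element, began 221 and 120 bases before the CPE start site; on either strand it was in 24.6% of the windows, and at least 2 copies were in 6.02%. No AP-1 word was found in the windows of CPE, CPM or CPVL, and 1 of the CPD windows held 1. A match is a description of the letters and not a measured site.

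Besides CPA4, whose promoter these words were taken from, 19 tested genes had at least 2 AP-1 words in a promoter window, of which 4 were higher, 5 lower and 10 did not pass. Among 457 tested genes with 1 word, 94 were higher and 102 lower (22.3%). Among 9461 with none, 1952 were higher and 1795 lower (19.0%). Of the 7 AP-1 subunit genes, JUNB fell from 11.1 ± 1.00 to 5.45 ± 0.395 cpm (SD, n = 3), a log2 fold change of -1.03 ± 0.11 (SE, edgeR adjusted p = 8.83e-07). FOSL1, the most abundant of them at 210 ± 9.42 and 225 ± 5.26 cpm, did not pass (0.10 ± 0.05, edgeR adjusted p = 0.121), nor did FOS, FOSL2 and JUND, and FOSB was not tested. FOSL1 did pass under 3 of 12 alternatives: without SNHG5 siRNA replicate 2 (0.12) and on log2(FPKM + 1) and log2(FPKM + 0.1) (0.233 and 0.235). JUN had a log2 fold change of 0.13 ± 0.05 (edgeR adjusted p = 0.0459), a call that did not hold without SNHG5 siRNA replicate 1 or 3 or without any 1 control library (0.10 to 0.16). These subunits were chosen after the CPA4 promoter was seen.

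The series title names miR-92a-3p, a microRNA of the miR-17-92 cluster, whose mature sequence in RefSeq is shown because its seed can be searched in the 6 genes. Capitals mark the seed, bases 2 to 8.
hsa-miR-92a-3p: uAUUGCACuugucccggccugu
The full match to these 7 bases, GTGCAAT, was in 0 of the 6 genes' annotated 3′ UTRs in GENCODE v29. Over 12292 tested genes with an annotated 3′ UTR, 1973 held it, or 16.1%. Shorter or shifted matches to the microRNA were not searched.

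CPA4 (ENSG00000128510.11) spans chr7:130293134-130324180 on the plus strand in GENCODE v29 (GRCh38), and no other annotated gene overlaps it. Its level was 1383, 1332 and 1386 cpm in replicates 1, 2 and 3 of the control siRNA group, and 587, 530 and 569 in those of the SNHG5 siRNA group. Each SNHG5 siRNA library lay far below the lowest control library, and SNHG5 siRNA replicate 2 was the lowest. Means were 1367 ± 30.1 and 562 ± 28.8 cpm (SD, n = 3), a log2 fold change of -1.28 ± 0.05 (SE), or 2.43-fold lower. The log2 fold change stayed between -1.32 and -1.24 under the alternatives tried. In RNA from whole cultures, fewer cells that make a transcript and less transcript per cell cannot be told apart.

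**Figure D1:**
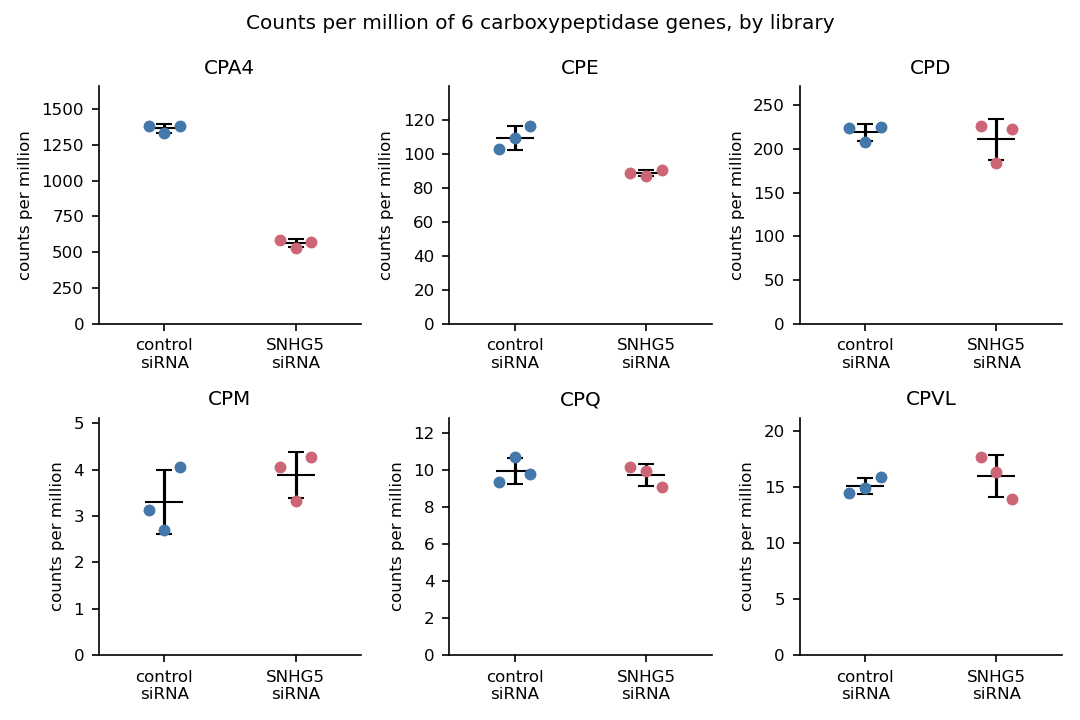
Counts scaled to library size, cpm (vertical axis, from 0) of the 6 carboxypeptidase genes in each library; points are libraries, the horizontal bar is the mean and the error bar the SD of 3 libraries. CPA4 and CPE have no overlap between the groups, and the other 4 genes overlap.

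Per length, CPA4 was the most abundant of the 6 genes in every library. In FPKM, which divides by gene length as well as depth, it was at 409 ± 8.26 in the control group and 172 ± 7.77 in the SNHG5 siRNA group (SD, n = 3). Ranked by FPKM among all genes of each library, it was in place 87, 99 and 91 in control siRNA replicates 1, 2 and 3. With SNHG5 siRNA it was in place 222, 272 and 224, still a high level. CPA4 made up 86.9%, 86.5% and 86.8% of the summed FPKM of the secreted and membrane M14 genes described here in the control libraries and 76.8%, 77.1% and 76.0% in the SNHG5 siRNA libraries. Its FPKM was 10.2 to 11.1 times that of CPE in the control libraries and 5.38 to 5.74 times in the others.

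The remaining order per length was the same in both groups by mean FPKM. CPE stood at 38.9 ± 1.61 and 31.1 ± 0.963 FPKM in the control and SNHG5 siRNA groups, above CPD at 20.6 ± 1.04 and 18.9 ± 2.56. CPQ at 4.29 ± 0.363 and 4.24 ± 0.286 came before CPVL at 3.11 ± 0.0806 and 3.39 ± 0.323, and CPM at 0.388 ± 0.0418 and 0.418 ± 0.0564 was the lowest. The ranges of neighbours in this order did not overlap within a group. The places of CPQ and CPVL depend on the length used: by cpm per kilobase of annotated exon, CPVL was at 4.64 and CPQ at 2.84.

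**Figure D2:**
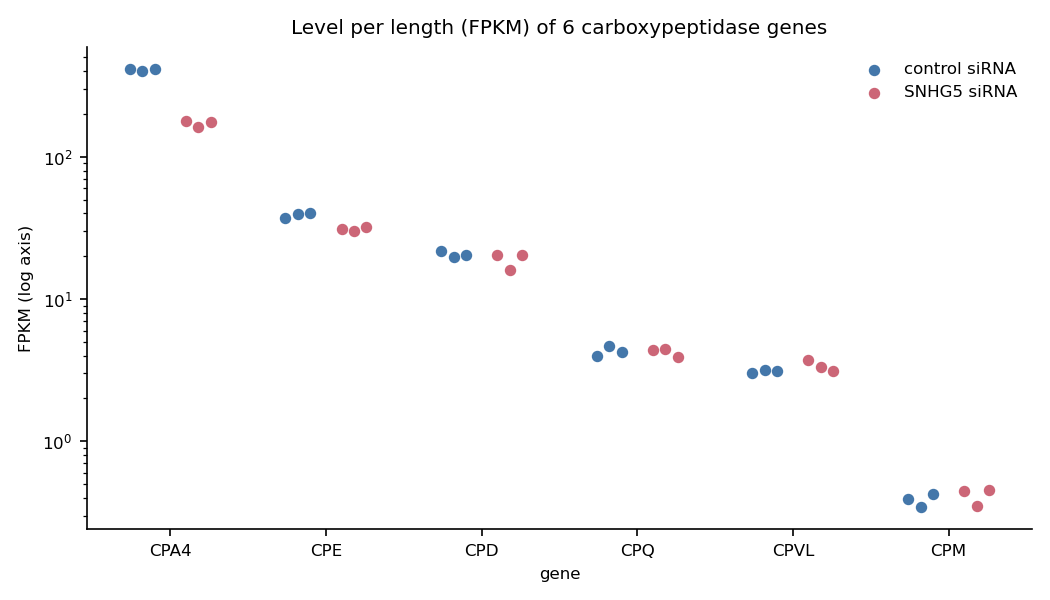
FPKM (log axis) of the 6 genes in each library, ordered by mean level; blue points are control siRNA libraries and red points SNHG5 siRNA libraries. CPA4 sits at 409 and 172 FPKM on average, and CPM, the lowest, at 0.388 and 0.418.

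CPE, at chr4:165361194-165498320 on the plus strand, was the only 1 of the 5 other members to pass the test, and it fell. Its level was 103, 109 and 117 cpm in the control replicates and 88.7, 87.2 and 90.5 in the SNHG5 siRNA replicates. The control libraries were more spread than the SNHG5 siRNA libraries, and the lowest of them was above all 3. Means were 109 ± 6.98 and 88.8 ± 1.65 (SD, n = 3), a log2 fold change of -0.30 ± 0.06 (SE, 95% interval -0.42 to -0.18, edgeR quasi-likelihood test with Benjamini-Hochberg adjustment over all genes, adjusted p = 3.69e-04). CPE passed under each of the 12 alternatives, at log2 fold changes from -0.35 to -0.25 with 1 library left out. The exact 2-sided permutation p was 0.10, the smallest that 3 against 3 libraries can give.

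That 1 of 5 is set against a background in which 40.2% of all tested genes passed, 20.3% as higher and 19.9% as lower with SNHG5 siRNA, with a median log2 fold change of -0.0052. Libraries of the groups did not overlap in 49.8% of the tested genes, and in CPA4 and CPE among the 6. The shares of 20.3% higher and 19.9% lower are also the background for the counts of list genes and neighbours below. All lists were written with earlier results of these data known, so counts of list genes are descriptions. With upper quartile scaling the split of passing genes was 2055 higher and 3089 lower, where the TMM scaling used here gave 2538 and 2488.

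CPD, at chr17:30378905-30469989 on the plus strand, was at 224, 208 and 225 cpm in the control replicates and 227, 184 and 223 in the SNHG5 siRNA replicates. SNHG5 siRNA replicate 2 was the lowest of the 6 and the other 2 of its group were level with the controls. On the log2 scale the change was -0.05 ± 0.07 (95% interval -0.19 to 0.09, edgeR adjusted p = 0.572), and 0.04 without SNHG5 siRNA replicate 2. CPD and CPE share their specificity for basic residues. Their intervals, -0.19 to 0.09 and -0.42 to -0.18, overlap only narrowly, but the difference between the genes was not tested.

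CPM, at chr12:68842197-68971570 on the minus strand, was counted thinly, with 55 to 90 counts per library. Its level was 3.13, 2.71 and 4.07 cpm in the control replicates and 4.06, 3.32 and 4.27 in the SNHG5 siRNA replicates, and the groups overlapped. Its log2 fold change was 0.24 ± 0.18 (95% interval -0.13 to 0.61, edgeR adjusted p = 0.290). CPM overlaps MDM2, the ubiquitin ligase of p53, by 8490 bases on the opposite strand. MDM2 fell from 186 ± 8.84 to 121 ± 4.91 cpm (-0.62 ± 0.05, edgeR adjusted p = 5.65e-08). No source used here says whether counting used strand, so reads of the shared stretch cannot be told apart.

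CPQ, at chr8:96645227-97149654 on the plus strand, was at 9.33, 10.7 and 9.79 cpm in the control replicates and 10.2, 9.96 and 9.06 in the SNHG5 siRNA replicates. The groups overlapped throughout. The log2 fold change was -0.03 ± 0.10 (95% interval -0.24 to 0.18, edgeR adjusted p = 0.846), so a change of the size seen in CPA4 lies outside the interval. Its sign was positive without control siRNA replicate 2 (0.03) and without SNHG5 siRNA replicate 3 (0.02).

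CPVL, at chr7:28995231-29195451 on the minus strand, was at 14.4, 14.9 and 15.8 cpm in the control replicates and 17.6, 16.3 and 13.9 in the SNHG5 siRNA replicates. The highest and the lowest library were both of the SNHG5 siRNA group. The log2 fold change was 0.09 ± 0.09 (95% interval -0.11 to 0.29, edgeR adjusted p = 0.481). CPVL overlaps CHN2, a Rac GTPase-activating protein gene, by 48883 bases on the opposite strand, and CHN2 did not pass (-0.15 ± 0.11, edgeR adjusted p = 0.313). Of the macrophage markers, CD163, LYZ and AIF1 were at 0 counts in every library. CD68 held most of the list, at 22.3 ± 2.46 and 26.0 ± 1.04 cpm in the control and SNHG5 siRNA groups (SD, n = 3). It did not pass (0.22 ± 0.09, edgeR adjusted p = 0.0508), except under 6 of 12 alternatives. PTPRC at 2.35 and 1.91 cpm and CSF1R at 2.47 and 2.34 did not pass either, and CD14 was at most 0.302 cpm. The summed list was 25.1 to 28.5 cpm in the control libraries and 29.2 to 31.4 in the SNHG5 siRNA libraries. CPVL lies on the short arm of chromosome 7 and CPA4 on the long arm.

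The other secreted and membrane M14 genes were fewer and far less abundant than CPA4. Of the 17 genes on the list, 8 were tested. Without CPA4, CPE, CPD and CPM, these were 4, of which 0 rose, 2 fell and 2 did not pass. Their median log2 fold change was -0.49. Over all tested genes, 20.3% rose and 19.9% fell. CPB2 and CPXM1 were at 0 in every library. CPA5 and CPA3 fell, both close relatives of CPA4 in the A/B branch of the family. CPZ (-0.60 ± 0.40, edgeR adjusted p = 0.243) and CPO (-0.15 ± 0.37, edgeR adjusted p = 0.785) were below 1 cpm on average in both groups.

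CPA3, known as a granule protease of mast cells, was at 5.62, 5.32 and 5.44 cpm in the control replicates and 4.33, 3.82 and 4.43 in the SNHG5 siRNA replicates. The groups did not overlap. Its log2 fold change was -0.38 ± 0.13 (edgeR adjusted p = 0.0311). This call held under 6 of 12 alternatives. It was lost with DESeq2 (adjusted p = 0.0916), without any 1 of the control libraries and without SNHG5 siRNA replicate 1 or 2, where the log2 fold change was -0.40 to -0.32. The mast cell markers TPSAB1, TPSB2 and MS4A2 were at 0 counts in every library. With CPA3 and KIT, the list summed to 5.71 to 6.40 cpm in the control libraries and 4.38 to 5.20 in the others.

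**Figure D3:**
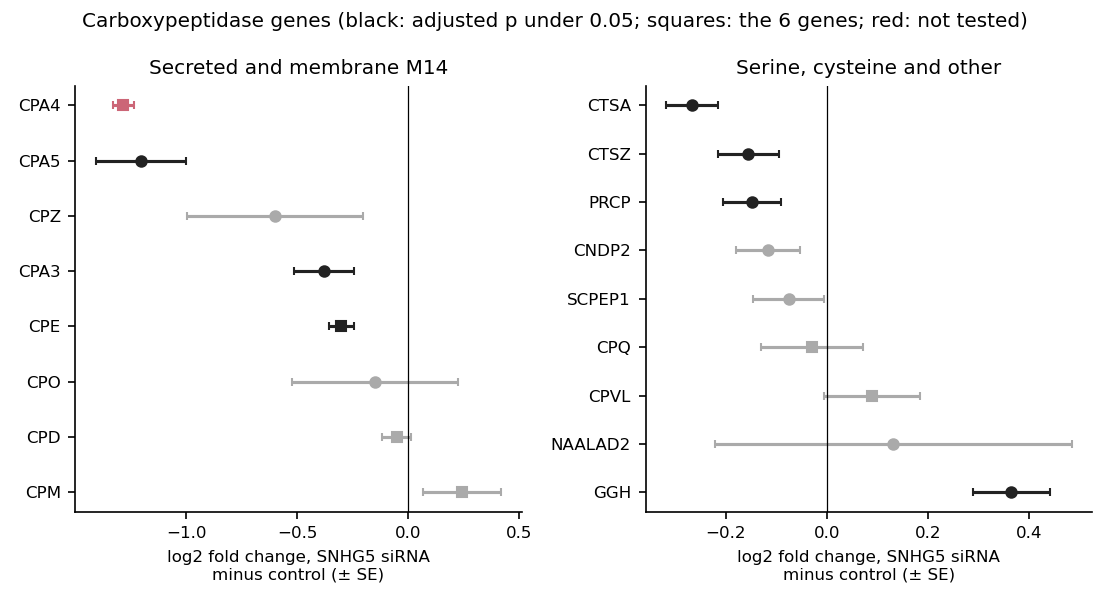
Log2 fold change with SNHG5 siRNA (horizontal axis) and its SE (error bars) for 8 tested M14 genes on the left and the 9 tested genes of other carboxypeptidase families on the right; black is an edgeR adjusted p under 0.05, grey did not pass, and CPA4, in red, has no test. The lowest values on the left are those of CPA4 and CPA5, and those on the right lie within a narrower range.

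Among carboxypeptidases of the serine, cysteine and other classes, 9 of 15 were tested. Without CPQ and CPVL these were 7, of which 1 rose, 3 fell and 3 did not pass, with a median log2 fold change of -0.12. CTSA, the lysosomal protective protein and a serine carboxypeptidase like CPVL, fell from 211 ± 7.09 to 175 ± 5.81 cpm (-0.27 ± 0.05, edgeR adjusted p = 3.76e-04), and did not pass on FPKM. CTSZ, a cysteine carboxypeptidase (-0.16 ± 0.06, edgeR adjusted p = 0.0463), and PRCP, which cleaves angiotensin and kinin peptides (-0.15 ± 0.06, edgeR adjusted p = 0.0445), passed narrowly, each under 5 of 12 alternatives. CTSZ was lost without replicate 1 or 2 of the control group or without replicate 1 or 3 of the SNHG5 siRNA group (-0.15 to -0.11), and PRCP without any 1 library except SNHG5 siRNA replicate 2 (-0.18 to -0.10). GGH, the folate gamma-glutamyl hydrolase, rose from 25.6 ± 1.67 to 33.0 ± 1.46 cpm (0.36 ± 0.08, edgeR adjusted p = 8.00e-04).

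Around CPA4, 13 other tested genes within 1 Mb are described. Among them 3 rose, 4 fell and 6 did not pass, with a median log2 fold change of -0.08. Over all tested genes, 20.3% rose and 19.9% fell. Those that fell most were CPA5 and, next beyond CEP41, MEST, a paternally expressed imprinted gene. CPA5 starts 51.7 kb downstream of the CPA4 start and leaves a gap of 20636 bases after its end.

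CPA5 was at 3.86, 3.50 and 2.75 cpm in the control replicates and 1.35, 1.61 and 1.44 in the SNHG5 siRNA replicates, from 50 to 79 and from 28 to 32 counts. Each SNHG5 siRNA library was below the lowest control library. Its log2 fold change was -1.20 ± 0.20 (SE, edgeR adjusted p = 1.19e-04), and it passed under each of 12 alternatives. On log2(FPKM + 1), which understates the change of low genes, CPA5 was at -0.21.

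CPA5 lies on the same strand as CPA4 and resembles it in sequence. CPA5 counts were 0.279%, 0.262% and 0.198% of the CPA4 counts in the control libraries and 0.231%, 0.304% and 0.253% in the SNHG5 siRNA libraries, and these ranges overlap. The part of misassigned or read-through CPA4 reads in the CPA5 counts was not tested. The exocrine pancreas markers PRSS1, CELA3A and CTRB1 were at 0 counts in every library, and that list, which holds CPA1 and CPB1, summed to at most 0.147 cpm.

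MEST, 193 kb downstream by start, was at 1417, 1465 and 1658 cpm in the control replicates and 705, 731 and 714 in the SNHG5 siRNA replicates. Means were 1513 ± 128 and 717 ± 12.9 (SD, n = 3), a log2 fold change of -1.08 ± 0.05 (SE, edgeR adjusted p = 2.29e-11). CEP41, a centrosomal protein gene between CPA5 and MEST, rose from 22.5 ± 0.643 to 29.8 ± 0.809 cpm (0.41 ± 0.07, edgeR adjusted p = 2.37e-04). COPG2, a coatomer subunit gene whose end overlaps that of MEST by 228 bases on the opposite strand, did not pass (0.07, edgeR adjusted p = 0.305). The stretch from CPA4 to MEST held falls and a rise among the tested genes described here. CPA1, between CPA5 and CEP41, was not tested. Farther out, KLHDC10 rose (0.34 ± 0.05, edgeR adjusted p = 5.88e-05). STRIP2 (0.22, edgeR adjusted p = 0.00991), MKLN1 (-0.18, edgeR adjusted p = 0.0189) and ZC3HC1 (-0.16, edgeR adjusted p = 0.0439) passed with small changes. STRIP2 was lost without replicate 2 of the control group or replicate 1 of the SNHG5 siRNA group (0.18 in both), MKLN1 without control siRNA replicate 1 or 3 (-0.16 in both), and ZC3HC1 without any 1 library except SNHG5 siRNA replicate 2 (-0.19 to -0.11).

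**Figure D4:**
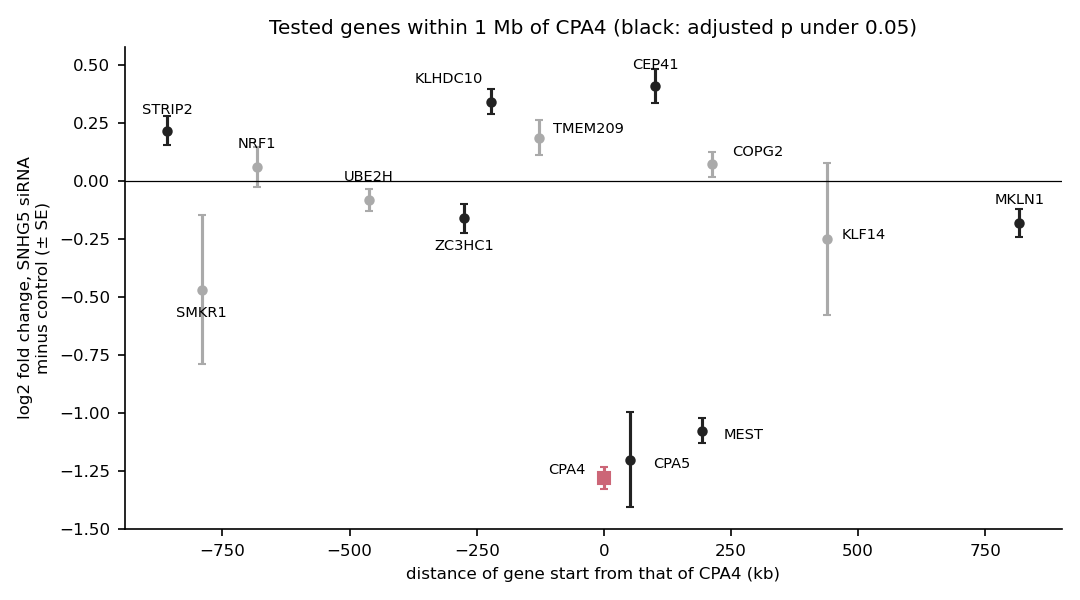
Log2 fold change with SNHG5 siRNA (vertical axis) and its SE (error bars) of 13 tested genes within 1 Mb of CPA4, by the distance of their start from that of CPA4 in kb; black is an edgeR adjusted p under 0.05, grey did not pass, and CPA4, in red, has no test. CPA4, CPA5 and MEST lie below -1, and the other genes lie between -0.47 and 0.41.

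The surroundings of the other members were mixed. Around CPE, 6 genes were tested, of which 3 rose and 3 did not pass. The nearest tested gene upstream was MSMO1, a cholesterol synthesis enzyme gene (0.22 ± 0.06, edgeR adjusted p = 0.00552). Downstream it was TLL1, a protease of the BMP1 family, 374938 bases beyond the end of CPE. TLL1 rose (0.95 ± 0.24, edgeR adjusted p = 0.00368, lost on log2(FPKM + 1) with 0.10), and the third to rise was TMEM192 (0.40). KLHL2, 38038 bases before CPE and so nearer than TLL1, did not pass (-0.03, edgeR adjusted p = 0.786). Around CPD, 2 of 18 rose and 1 fell, ATAD5 (0.52) and EVI2B (-0.44) among them; its neighbour BLMH rose (0.19 ± 0.06, edgeR adjusted p = 0.0172), a call lost without control siRNA replicate 1 and with upper quartile scaling (0.15 in both), and GOSR1 did not pass (-0.17, edgeR adjusted p = 0.0610), except without SNHG5 siRNA replicate 1 (-0.22) or 2 (-0.17), with upper quartile scaling (-0.21) and with the replicate block (-0.17). Around CPM, 4 of 12 rose and 3 fell, and its other neighbour CPSF6 did not pass (0.04, edgeR adjusted p = 0.586). Around CPQ, 1 of 5 rose, namely MTDH (0.17 ± 0.05, edgeR adjusted p = 0.00863), and SDC2 did not pass (0.07, edgeR adjusted p = 0.310). Around CPVL, 1 of 5 rose, SCRN1 (0.21), and 1 fell, WIPF3 (-0.79), and CREB5 did not pass (0.14, edgeR adjusted p = 0.109), except without SNHG5 siRNA replicate 2 (0.22) and with the replicate block (0.13).

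The genes most like CPA4 across the 6 libraries were sought by the root mean square difference of log2 cpm, each centred on its own mean, over 10467 genes with a mean of at least 5. The closest was HGSNAT, a lysosomal acetyltransferase of heparan sulphate breakdown, at a difference of 0.0291, where the median gene was at 0.651. It was at 102, 102 and 102 cpm in the control replicates and 45.4, 39.3 and 43.3 in the SNHG5 siRNA replicates, with SNHG5 siRNA replicate 2 the lowest, as in CPA4. ANKRD46 (0.0550), TRIM22, an interferon-induced ubiquitin ligase (0.0671), TULP3, a ciliary trafficking gene (0.0753), and ANK1, an ankyrin (0.0796), came next. Their log2 fold changes were -1.26 for HGSNAT, -1.24 for ANKRD46, -1.17 for TRIM22, -1.37 for TULP3 and -1.21 for ANK1. These are given without a test, since the measure of likeness uses the same contrast. HGSNAT, ANKRD46 and ANK1 lie on chromosome 8, TRIM22 on chromosome 11 and TULP3 on chromosome 12.

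Latexin inhibits the A/B branch to which CPA4 belongs. LXN was at 10.7, 10.3 and 11.1 cpm in the control replicates and 9.03, 10.9 and 9.63 in the SNHG5 siRNA replicates, with overlap, and did not pass (-0.12 ± 0.10, 95% interval -0.33 to 0.09, edgeR adjusted p = 0.359). RARRES1, the related retinoid-responsive gene, was at 2.09 ± 0.161 and 1.53 ± 0.0926 cpm (SD, n = 3) and did not pass either (-0.45 ± 0.21, 95% interval -0.89 to -0.0032, edgeR adjusted p = 0.101). Of the latexin family, 0 of 2 thus passed, with a median log2 fold change of -0.28.

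CPE and CPD act after proprotein convertases. In the list of prohormone processing and secretory granule genes, 7 of 16 were tested, of which 2 rose, 1 fell and 4 did not pass, with a median of 0.07. FURIN, the convertase that works beside CPD, was at 86.1, 88.3 and 74.5 cpm in the control replicates and 85.4, 87.6 and 88.3 in the SNHG5 siRNA replicates, and did not pass (0.07 ± 0.06, edgeR adjusted p = 0.410), except on log2(FPKM + 1) (0.20) and log2(FPKM + 0.1) (0.21). PAM, which amidates peptides after CPE has trimmed them, was at 112 ± 4.18 and 123 ± 8.70 cpm and did not pass (0.14 ± 0.06, edgeR adjusted p = 0.0735), except without SNHG5 siRNA replicate 2 (0.19, edgeR adjusted p = 0.00184), with no filter on low counts (0.14) and with the replicate block (0.13). PCSK7 rose from 41.4 ± 3.70 to 59.4 ± 1.41 cpm (0.52 ± 0.07, edgeR adjusted p = 5.36e-06), and MBTPS1, the site 1 protease, from 109 ± 0.575 to 141 ± 3.03 (0.37 ± 0.05, edgeR adjusted p = 1.15e-05).

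SCG2, a secretogranin of hormone granules, had -0.61 ± 0.22 (edgeR adjusted p = 0.0338), lost without SNHG5 siRNA replicate 1 (-0.29) or any 1 control library (-0.69 to -0.52). The granule convertases PCSK1 and PCSK2 and the granin SCG3 were at 0 counts in every library. Of the neuroendocrine markers, INSM1 was at 0, and the list, which holds SCG2, summed to 4.95 to 5.42 cpm in the control libraries and 2.21 to 4.43 in the SNHG5 siRNA libraries.

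CPM at the cell surface trims kinins and complement fragments. Of the kinin and complement list, 9 of 15 were tested. Among them 3 rose, 5 fell and 1 did not pass, with a median of -0.51. Over all tested genes, 20.3% rose and 19.9% fell. The list was written with earlier results of these data known, so its count is a description and not a test. C5AR1, the receptor for C5a, was at 8.01, 6.35 and 8.58 cpm in the control replicates and 1.53, 1.46 and 1.29 in the SNHG5 siRNA replicates. It fell by 2.41 ± 0.17 on the log2 scale (SE, edgeR adjusted p = 3.63e-09), a larger change than that of CPA4 from a far lower level. C3AR1, the receptor for C3a, fell from 2.22 ± 0.549 to 1.10 ± 0.134 (-1.01 ± 0.25, edgeR adjusted p = 0.00338). C3 itself fell from 20.3 ± 1.15 to 10.9 ± 1.29 (-0.90 ± 0.09, edgeR adjusted p = 5.11e-07). ECE1, an endothelin-converting enzyme that also cleaves bradykinin, rose from 194 ± 8.28 to 328 ± 11.2 (0.76 ± 0.05, edgeR adjusted p = 1.67e-09). The kinin receptors BDKRB1 (-0.52, edgeR adjusted p = 2.05e-04), which binds kinins that CPM has trimmed, and BDKRB2 (-0.51, edgeR adjusted p = 0.00436) also fell. C5, the precursor of C5a (0.53, edgeR adjusted p = 3.04e-04), and MME, the peptidase neprilysin (0.37, edgeR adjusted p = 6.18e-05), rose, and the precursor KNG1 was at 0 counts in every library.

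**Figure D5:**
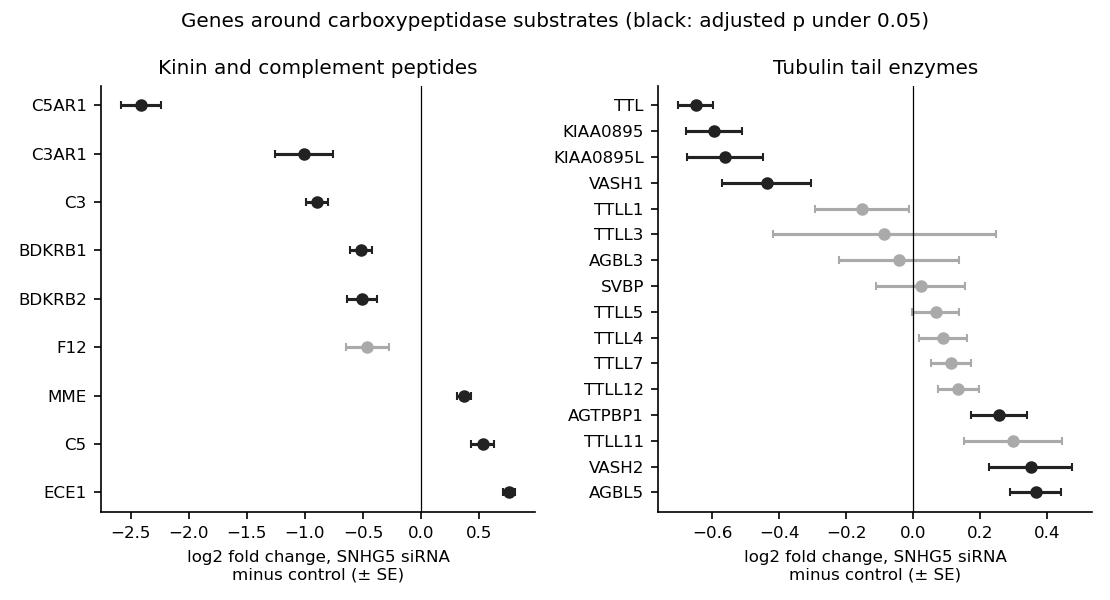
Log2 fold change with SNHG5 siRNA (horizontal axis) and its SE (error bars) of the 9 tested kinin and complement genes on the left and the 16 tested genes of tubulin tail enzymes on the right; black is an edgeR adjusted p under 0.05 and grey did not pass. C5AR1 is the lowest at -2.41, and the tubulin genes lie between -0.65 and 0.37.

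Tubulin tails are trimmed by another branch of carboxypeptidases, inside the cell. Of the cytosolic carboxypeptidases and tubulin detyrosinases, 8 of 11 were tested, of which 3 rose, 3 fell and 2 did not pass, with a median of -0.0096. AGBL5, which removes branch glutamates, rose from 24.1 ± 1.55 to 31.0 ± 1.52 cpm (0.37 ± 0.08, edgeR adjusted p = 9.52e-04). KIAA0895, at 22.4, 19.5 and 21.4 cpm in the control replicates and 13.8, 13.9 and 14.2 in the SNHG5 siRNA replicates, fell (-0.60 ± 0.08, edgeR adjusted p = 1.63e-05), and KIAA0895L from 10.1 ± 0.579 to 6.85 ± 0.869 (-0.56 ± 0.11, edgeR adjusted p = 6.35e-04). VASH1, a tubulin tyrosine carboxypeptidase, fell (-0.44 ± 0.13, edgeR adjusted p = 0.0137), a call lost without replicate 1 of the control group (-0.41) or of the SNHG5 siRNA group (-0.39). Its relative VASH2 had 0.35 ± 0.12 (edgeR adjusted p = 0.0297), lost without replicate 1 or 3 of the control group or replicate 1 of the SNHG5 siRNA group (0.27 to 0.37). AGTPBP1, which shortens glutamate chains, had 0.26 ± 0.08 (edgeR adjusted p = 0.0194), lost without replicate 2 or 3 of the control group or replicate 1 of the SNHG5 siRNA group (0.24 to 0.25). KIAA0895L is known as a metalloprotease that also removes the tubulin tyrosine, and KIAA0895 is its relative.

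Of the 14 names listed for the tubulin ligase family, 13 were found and 8 were tested. Among these 0 rose, 1 fell and 7 did not pass, with a median of 0.08. TTL, the ligase that restores the tyrosine, was at 149, 146 and 148 cpm in the control replicates and 96.2, 90.6 and 95.4 in the SNHG5 siRNA replicates. It fell by 0.65 ± 0.05 on the log2 scale (SE, edgeR adjusted p = 1.47e-08) and passed under each of 12 alternatives. TTLL12 did not pass (0.14 ± 0.06, edgeR adjusted p = 0.0798), except without replicate 2 of the control group (0.19) or of the SNHG5 siRNA group (0.15), with the replicate block (0.14) and on FPKM with either pseudocount (0.28).

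Histone deacetylases are described because CPA4 was first found through their inhibitors. Of the 11 zinc-dependent genes, all tested, 2 rose, 1 fell and 8 did not pass, with a median of -0.06. HDAC1 rose from 97.7 ± 3.53 to 123 ± 6.32 cpm (0.33 ± 0.06, edgeR adjusted p = 1.19e-04) and HDAC3 from 61.5 ± 0.959 to 71.2 ± 4.88 (0.21 ± 0.06, edgeR adjusted p = 0.00907). HDAC11 fell from 12.9 ± 0.0824 to 10.4 ± 0.572 (-0.31 ± 0.09, edgeR adjusted p = 0.0106), and did not pass on FPKM.

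Aminopeptidases and dipeptidyl peptidases, which work from the other end of the chain, gave 4 higher, 4 lower and 17 that did not pass among 25 tested of 30, with a median of 0.0013. DPP4, a cell surface enzyme that clips hormones and chemokines, fell from 82.6 ± 2.66 to 59.5 ± 1.39 cpm (-0.47 ± 0.06, edgeR adjusted p = 2.13e-06). DNPEP had -0.22 ± 0.07 (edgeR adjusted p = 0.0169), lost without replicate 2 of the control group (-0.16) or replicate 1 of the SNHG5 siRNA group (-0.22). LNPEP, the oxytocinase, had 0.20 ± 0.07 (edgeR adjusted p = 0.0290), lost without replicate 2 or 3 of the control group or without replicate 1 or 3 of the SNHG5 siRNA group (0.14 to 0.19). The others were BLMH, given above with the neighbours of CPD, RNPEPL1 (0.19), DPP9 (0.15), DPP3 (-0.19) and C9orf3 (-0.19), at edgeR adjusted p from 0.0142 for RNPEPL1 to 0.0363 for DPP9. Each of these 4 lost its call without control siRNA replicate 1 (RNPEPL1 0.17, DPP9 0.17, DPP3 -0.19) or, for C9orf3, without control siRNA replicate 2 (-0.16). DPP9 was also lost without control siRNA replicate 3 and SNHG5 siRNA replicates 1 and 3 (0.11 to 0.16), DPP3 without control siRNA replicate 2 and SNHG5 siRNA replicate 3 (-0.19 to -0.15), and C9orf3 without SNHG5 siRNA replicates 1 and 3 (-0.16 and -0.17). With upper quartile scaling, 0 of this list passed as higher.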

How the data were processed

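The 6 mRNA libraries of KGN cells were grouped by their labels. Reads were trimmed with Trimmomatic and the genome build was GRCh38, per the submitters' processing notes, while no source used here gives the aligner, the counter, its strand setting or the annotation. The deposited table of counts holds whole numbers per gene name, not normalised. The authors also deposited FPKM, adjusted for gene length and depth by a tool that is not stated.

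The unit cpm scales a count by the library's total over the genes kept for testing, multiplied by its TMM factor. The floor was scaled by the library's total count. The 12508 genes kept by filterByExpr were scaled by TMM and tested with edgeR 4.0.16 in R 4.3.3 (2-sided quasi-likelihood test of the SNHG5 siRNA against the control group, Benjamini-Hochberg over all genes, threshold 0.05), and the 7522 other names were not. "Passed", "rose" and "fell" refer to that threshold. Intervals are 95% from the same fit, and the floor covers counting error only. The script was tested on simulated counts with 200 changed genes, far fewer than passed here. That run does not show how TMM scaling behaves under so broad a change. Alternatives were DESeq2 1.42.0, upper quartile scaling, no filter, a replicate block, each library left out, and limma 3.58.1 on log2(FPKM + 1) and log2(FPKM + 0.1). Positions come from GENCODE v29 and sequences from RefSeq tables, and GENCODE matched all 6 genes. Promoter windows of the members were read without chromosome 8, which holds CPQ, so 5 of the 6 genes have them.

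The members, 9 gene lists and 5 marker lists were chosen with earlier results of these data known. Named were the 6 genes, LXN, RARRES1, FURIN and PAM; up to 4 passing genes per list by absolute log2 fold change, or the 2 most abundant in lists with fewer than 2 passing; the nearest tested gene on each side of each member; up to 4 passing genes within 1 Mb of CPA4; and the 5 genes most like CPA4. The AP-1 subunits, COPG2, CPO, CPZ and passing genes that complete a small count were added after their values were seen. Some genes are not reported here and were left out of the lists and of the genes near CPA4, not of the fit. Plots were drawn with matplotlib 3.10.9.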

Additional observations from a re-analysis of the deposited data

How the results depend on the processing

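Of the 5 genes with a test, CPE, CPM and CPVL kept the sign of their log2 fold change under each of the 12 alternatives. Only CPE passed under any of them. CPA4 stayed between -1.32 and -1.24, a description only, since it was picked for its fall in these same libraries. CPD ranged from -0.11 to 0.0413 and CPQ from -0.0744 to 0.0278 with 1 library left out; CPD was positive without SNHG5 siRNA replicate 2, and CPQ also without SNHG5 siRNA replicate 3 (0.0185). FURIN ranged from -0.002 (without control siRNA replicate 3) to 0.1155 with 1 library left out, and was at 0.1967 and 0.2067, past the threshold, on log2(FPKM + 1) and log2(FPKM + 0.1). CPSF6 turned to -0.0034 with upper quartile scaling and to -0.0758 and -0.0805 on log2(FPKM + 1) and log2(FPKM + 0.1). COPG2 turned to -0.0103 and -0.0109 on FPKM with pseudocount 1 and 0.1, and CPO ranged from -0.6682 to 0.0871 with 1 library left out. Genes passing numbered 3991 to 5608 with 1 library left out, and 4478 with DESeq2. Besides the losses given in the report, calls were lost with DESeq2 for AGTPBP1, CTSZ, PRCP, VASH2 and ZC3HC1. They were lost with upper quartile scaling for DPP9, JUN, LNPEP, RNPEPL1 and VASH2, and with no filter on low counts for PRCP and ZC3HC1. On FPKM with either pseudocount they were lost for AGTPBP1, CTSZ, DNPEP, DPP3, LNPEP, MTDH, SCG2, STRIP2, VASH1, VASH2 and ZC3HC1, and RARRES1 passed on log2(FPKM + 1) (-0.19).

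Counts of list genes moved as follows. Cytosolic carboxypeptidases that rose were 3, but 1 with DESeq2 and on FPKM with either pseudocount (1 to 3 with 1 library left out). Tubulin ligases that rose were 0, but 1 with the replicate block and on FPKM with either pseudocount (0 to 2). Serine, cysteine and other carboxypeptidases that fell were 3, but 1 with DESeq2 and on FPKM with either (1 to 4). Prohormone genes that fell were 1, but 0 on FPKM with either (0 to 1). Latexin family genes that fell were 0, but 1 on log2(FPKM + 1). Histone deacetylases that fell were 1, but 2 with upper quartile scaling and with the replicate block, and 0 on FPKM with either (1 to 2). Aminopeptidases that rose were 4, but 0 with upper quartile scaling (1 to 5), and those that fell were 4, but 2 on FPKM with either (1 to 5). The order CPQ above CPVL turned when counts were divided by exon length. The cause was not tested in any of these.

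Replicate numbers are shared by the groups in the labels, but the correlations of same-numbered deviations were 0.0463, 0.13 and 0.0264, and control siRNA replicate 1 did not correlate best with its own number, so the numbers were not taken as pairs. With the replicate block 5714 genes passed in place of 5026. Depth limits CPM and CPA5, with at most 90 counts in a library, and CPZ, CPO, TLL1, C3AR1 and RARRES1, with fewer.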
